A study of Homo sapiens with 6 samples.

Results

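The GADD45 genes encode small acidic proteins that are made when cells stop growing or meet stress. The family has 3 named genes, GADD45A, GADD45B and GADD45G, and they were chosen by symbol, with the values of the treated and control libraries already in view. Of these, 2 were analysed, GADD45A and GADD45B, of 23619 genes in the table, and GADD45G is not analysed here. Both passed the filter on low values. The treated group was T24 given 3.84 µM Caba-780 for 24 h (3 libraries), and the control group was T24 with no treatment (3 libraries). T24 is an established human bladder cancer cell line, labelled wild type in both groups, and Caba-780 is described as a near-infrared fluorescence imaging drug. The labels name no vehicle for the control cells, and they do not say that the libraries came from separate cultures, so the spread between libraries may be technical.

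GADD45 proteins have no known enzyme activity and act by binding other proteins. They bind the kinase MAP3K4 and so switch on the p38 and JNK stress kinases, they bind the CDK1 and cyclin B complex that drives entry into mitosis, and they bind the replication clamp PCNA. GADD45A is also known to bring repair enzymes to methylated DNA. GADD45A is the member best known from DNA damage and starvation, while GADD45B is best known as a target of NF-kB and of TGF-beta signalling.

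GADD45A (ENSG00000116717, chromosome 1, 67685061 to 67688338 on GRCh38, plus strand) has a longest annotated protein of 165 amino acids, encoded by a transcript of 4 exons. GADD45B (ENSG00000099860, chromosome 19, 2476122 to 2478259, plus strand) has a longest annotated protein of 176 amino acids, encoded by a transcript of 3 exons. No other annotated gene overlaps either of them in GENCODE release 29. The RefSeq table of promoters (GRCh38.p14) held 2 of the 3 family genes. The 250 bases before their starts are shown so that the motif matches described next can be read in place. Capitals mark matches to the motifs searched. GADD45B lies at chr19:2475877-2476126 and GADD45G at chr9:89604762-89605011, both on the plus strand, written 5′ to 3′.
GADD45B: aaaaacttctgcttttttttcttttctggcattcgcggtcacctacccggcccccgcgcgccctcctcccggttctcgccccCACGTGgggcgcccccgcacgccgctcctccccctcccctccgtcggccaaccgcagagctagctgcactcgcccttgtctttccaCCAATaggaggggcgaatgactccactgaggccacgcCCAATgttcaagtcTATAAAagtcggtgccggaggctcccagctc
GADD45G: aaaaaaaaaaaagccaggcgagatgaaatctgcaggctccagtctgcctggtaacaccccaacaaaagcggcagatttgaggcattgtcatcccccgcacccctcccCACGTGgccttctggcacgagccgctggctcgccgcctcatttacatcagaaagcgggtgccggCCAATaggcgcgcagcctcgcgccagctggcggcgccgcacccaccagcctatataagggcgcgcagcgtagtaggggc

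Both windows held the E-box CACGTG, beginning 168 bases before the start in GADD45B and 143 bases before it in GADD45G. Of 35116 promoters of the same length, 6.34% held this motif. Both held CCAAT, at 82 and 45 bases before the start in GADD45B and at 79 bases in GADD45G, as did 11240 of the 35116 promoters. GADD45B also held TATAAA at 31 bases before its start, a motif found in 10.7% of promoters. On either strand neither window held the octamer ATTTGCAT (1.63% of promoters), the AP-1 motif TGANTCA (6.57%), the core CRE letters TGACGT (7.10%), the C/EBP-ATF motif TGATGCAA (0.772%) or the GC box GGGCGG (42.6%). A stricter and a looser form of the NF-kB motif (0.527% and 1.40% of promoters) were not in either window. The GC content of the windows was 63.2% in GADD45B and 61.6% in GADD45G, against a median of 58.0% over all promoters. These are matches of letters, and no binding was measured.

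The libraries were of like depth, with 14591234 to 15983035 reads in genes, so that 3 reads correspond to 0.188 to 0.206 CPM. Control replicate 3 stood apart: reads fell in 13627 of its genes, against 19467 to 20308 in the other libraries, and genes with only 1 to 9 reads numbered 638, against 5636 to 6100. Changes of the GADD45 genes are therefore given with all 6 libraries and without that library, and those of other genes in the fit named beside them. Of 15 epithelial and urothelial markers, 11 were analysed and 10 passed 1 TPM (a level per length of gene) in some library. Some of the 10 rest on few reads: EPCAM, GATA3, UPK1A and UPK2 had 34, 35, 30 and 10 over all 6 libraries. KRT7, KRT8 and KRT18 were at 101 to 412 TPM with Caba-780 and 33.5 to 297 TPM in controls. The adhesion gene CDH1 was at most 0.12 TPM, and EPCAM and GATA3 at most 3.64 and 1.02 TPM, while the mesenchymal marker VIM was at 410 to 439 TPM with Caba-780 and 430 to 854 TPM in controls. Of 10 markers of leukocytes, endothelium and fibroblasts, 5 were analysed and only COL1A1 passed 1 TPM, at 3.34 to 6.40 TPM with Caba-780 and 5.91 to 12.7 TPM in controls.

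With Caba-780, GADD45A stood far above its control level and GADD45B did not. GADD45A had 9445, 8999 and 10438 normalized counts in Caba-780 replicates 1 to 3, against 721, 779 and 213 in control replicates 1 to 3. A normalized count is the number of reads in the gene divided by 1 size factor for the library. All 3 treated libraries were above all 3 controls, by a wide margin, and the lowest control was replicate 3. The means were 9627 ± 737 with Caba-780 and 571 ± 311 in controls (SD, n = 3 each), which is 16.9-fold. Without control replicate 3 the control mean was 749.8 ± 41.1 (SD, n = 2), and the ratio was 12.8-fold. The values rest on 9544 to 10632 reads in each treated library and 189 to 757 reads in each control library. In bulk RNA a higher level in each cell cannot be told apart from a larger share of cells with a high level.

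GADD45B had 2262, 1794 and 2135 normalized counts in Caba-780 replicates 1 to 3, against 2583, 2757 and 173 in control replicates 1 to 3. The treated libraries lay between the controls, below replicates 1 and 2 and far above replicate 3. The means were 2064 ± 242 with Caba-780 and 1838 ± 1445 in controls (SD, n = 3 each), so that the control SD was far larger than the difference. Without control replicate 3 the control mean was 2670 ± 123 (SD, n = 2), and the treated level was 0.773 of it. The reads behind these values were 1903 to 2524 in the treated libraries, 2663 and 2680 in control replicates 1 and 2, and 153 in control replicate 3.

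**Figure D1:**
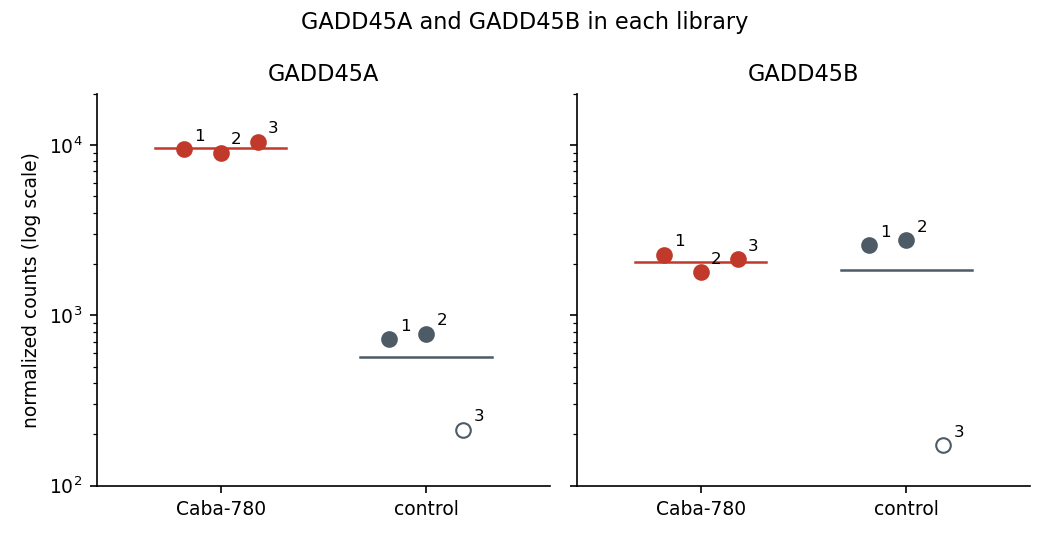
Normalized counts (log scale) of GADD45A and GADD45B in each library, with Caba-780 in red and control in grey; numbers are replicates, lines are group means and the open point is control replicate 3. GADD45A lies at 8999 to 10438 with Caba-780 and 213 to 779 in controls, while GADD45B lies at 1794 to 2262 with Caba-780, below control replicates 1 and 2 and above control replicate 3.

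Of the 2 genes, GADD45A had groups that did not overlap with 6 libraries, as 31.3% of the 13847 genes tested did (17.9% higher and 13.4% lower with Caba-780). Without control replicate 3 neither gene had overlapping groups, with GADD45A higher and GADD45B lower, and the share over all genes was then 56.5% (28.0% higher and 28.4% lower). These counts describe the contrast on which the genes were chosen, and no test of them is given.

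On the log2(normalized count + 1) scale, the change of GADD45A was 4.28 ± 0.50 (SE, limma) with 6 libraries and 3.68 ± 0.13 without control replicate 3. The change of GADD45B was 0.94 ± 1.05 with 6 libraries and −0.38 ± 0.14 without control replicate 3, so that its sign turned with that library. Among all genes tested, the change of GADD45A was the 23rd highest of 13847 with 6 libraries and the 22nd highest of 13708 without control replicate 3. GADD45B was 2161st and 10664th in the same orders. The median change of all genes was 0.10 with 6 libraries and −0.02 without control replicate 3. The authors' deposited table gives log2 fold changes of 4.08 for GADD45A and 0.17 for GADD45B from all 6 libraries. For GADD45B, DESeq2 and edgeR on 6 libraries gave 0.16 and 0.18, and the ratio of the group means was 1.12. The limma value of 0.94 is a difference between means of logs, in which the low control replicate 3 weighs more.

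**Figure D2:**
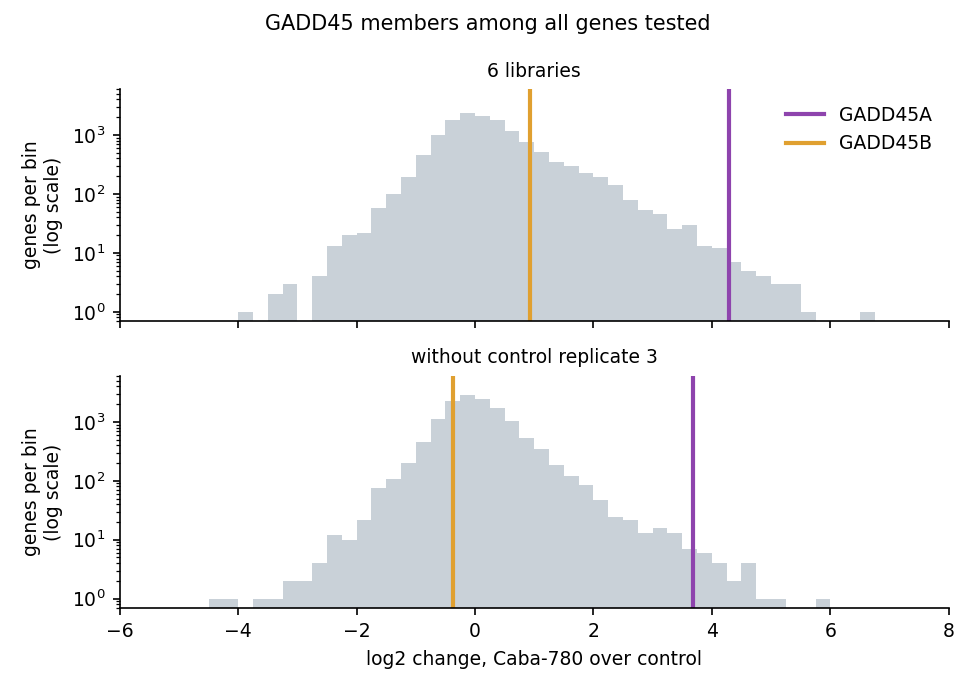
Number of genes (log scale) by log2 change, Caba-780 over control, with 6 libraries (top) and without control replicate 3 (bottom); coloured lines mark the GADD45 genes. GADD45A lies in the upper tail in both panels (4.28 and 3.68), and GADD45B moves across 0 (0.94 with 6 libraries, −0.38 without control replicate 3).

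Per length, the order of these genes differed between the groups. On the TPM scale, which divides reads by gene length, GADD45A was at 1276, 1209 and 1428 TPM in Caba-780 replicates 1 to 3, against 89.4, 91.2 and 24.7 TPM in control replicates 1 to 3. GADD45B was at 296, 233 and 283 TPM with Caba-780, against 310.2, 312 and 19.3 TPM in controls. GADD45A thus stood above GADD45B in every treated library, and below it in control replicates 1 and 2. In control replicate 3 the levels lay close, at 24.7 TPM for GADD45A and 19.3 TPM for GADD45B. GADD45A made up 81.2%, 83.8% and 83.5% of the sum of the pair with Caba-780, against 22.4%, 22.6% and 56.1% in controls. The sum itself was 1572, 1443 and 1711 TPM with Caba-780, and 399.7, 404 and 44.0 TPM in controls. By mean TPM, GADD45A ranked 56th among the 23619 genes with Caba-780, against 2142nd in control replicates 1 and 2. The ranks of GADD45B were 556 with Caba-780 and 481 in control replicates 1 and 2. Over all 3 controls the ranks were 2797 for GADD45A and 751 for GADD45B, so that GADD45B then ranked lower in controls than with Caba-780.

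**Figure D3:**
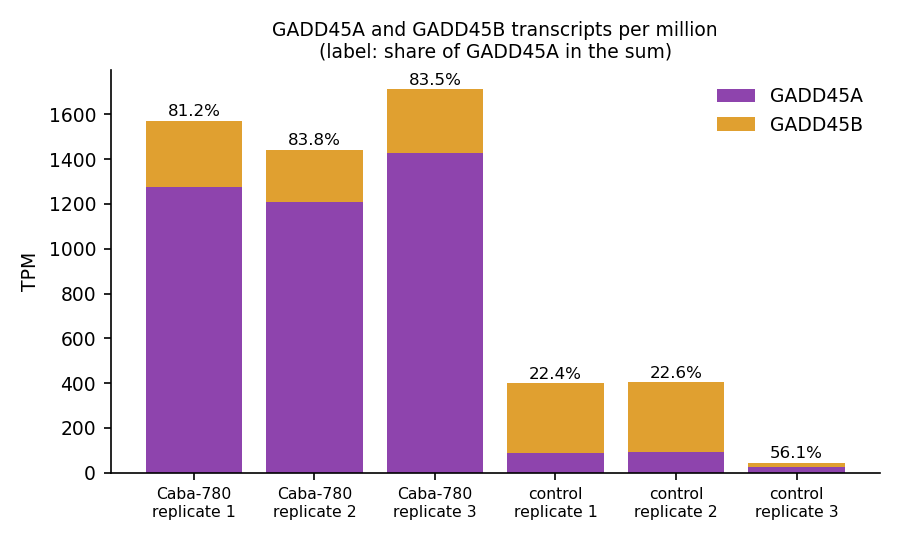
Levels per length (TPM) of GADD45A and GADD45B stacked for each library, labelled with the share of GADD45A in the sum. The share is 81.2% to 83.8% with Caba-780, 22.4% and 22.6% in control replicates 1 and 2 and 56.1% in control replicate 3, whose sum is also the lowest (44.0 TPM).

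The level in control replicate 3 was 0.284 of the mean of the other controls for GADD45A and 0.0646 of it for GADD45B. For comparison, 3849 genes averaged at least 1000 normalized counts in control replicates 1 and 2, and their median ratio was 0.946, with 5% of genes under 0.241. Of these genes, which include GADD45B, 5 had a lower ratio than GADD45B. GADD45A averaged 749.8 in those controls and so is not among them, and 285 of them had a lower ratio than GADD45A. The part that the quality of this library has in the low GADD45B value was not tested. Across 19 alternative settings the change of GADD45A stayed between 3.62 and 4.61. GADD45B was above 0 in 14 of them and below 0 in 5, with a range of −0.41 to 1.62. Those below 0 were the 4 settings that left out control replicate 3 and limma-voom with library weights.

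**Figure D4:**
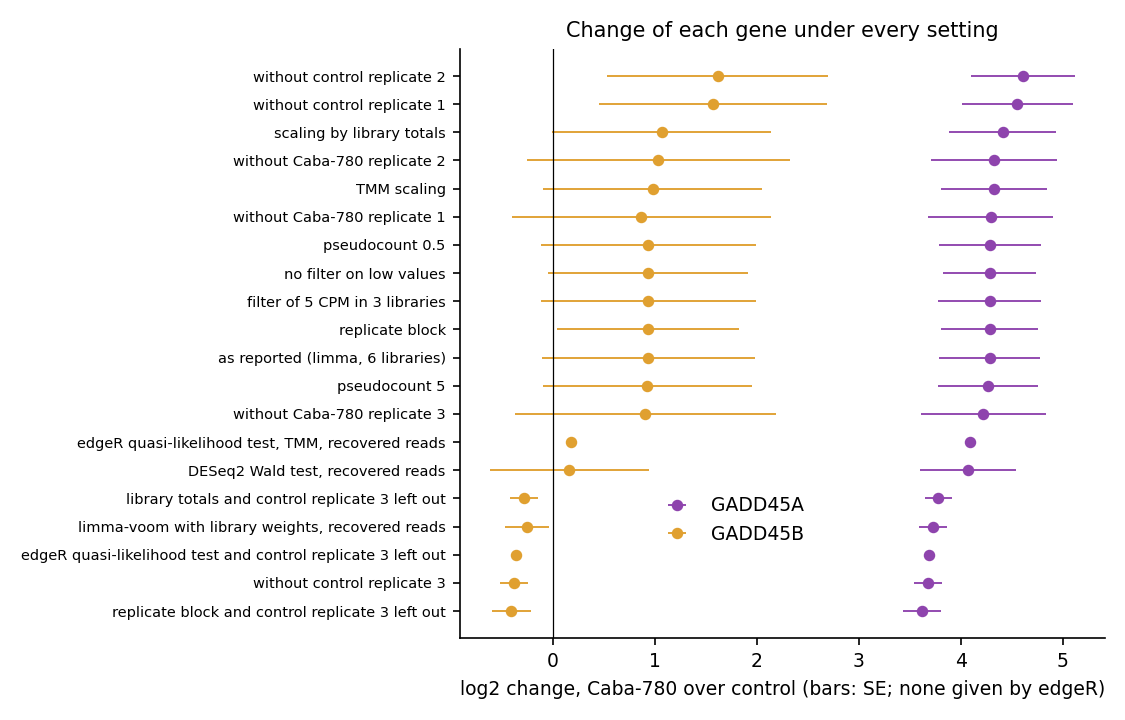
Log2 change (Caba-780 over control, bars are SE) of GADD45A and GADD45B under the reported fit and 19 alternatives, one per line. GADD45A stays between 3.62 and 4.61, while GADD45B lies below 0 in the 5 settings that leave out control replicate 3 or weight the libraries, and above 0 in the other 14.

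Genes around the GADD45 proteins were then read from 6 lists with 102 genes in all, of which 98 were tested. With 6 libraries 3 of the 98 rose and 4 fell (limma, adjusted p under 0.05), or 7.14%, against 1.00% of all 13847 genes (0.744% higher and 0.260% lower). Without control replicate 3, 28 rose and 19 fell, or 48.0%, against 32.4% of all 13708 genes (17.2% higher and 15.2% lower). All 7 genes called with 6 libraries were among these, in the same direction. Of the 7, 5 were in the cell cycle list. The lists of the kinase cascade, of DNA demethylation and of mRNA decay had 0. The lists were chosen with earlier results of these data known, so the shares describe the lists and do not test them. The calls with 6 libraries rest on each other library as well: leaving out control replicate 1 left 1 gene called in the whole table, while 0 were called by limma once control replicate 2 or a single treated library was dropped. In those 5 fits the unadjusted p was under 0.05 for 1092 to 2388 genes. The p-values without control replicate 3, here and below, rest on 3 treated libraries against control replicates 1 and 2. These may not be separate cultures, and that library was left out with earlier results known, so very small values overstate the evidence.

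Among transcription factors known to act on GADD45 genes, 3 NF-kB subunit genes had the highest changes without control replicate 3. NFKB1, the p105/p50 subunit, rose with 6 libraries, to 3955 ± 205 normalized counts with Caba-780, against 1135 ± 47.1 in controls (SD, n = 3 each), a change of 1.80 ± 0.15 (limma adjusted p = 0.0165). With 6 libraries limma and edgeR each called 1 of the 27 factors, DESeq2 called 7 (5 higher and 2 lower) and limma-voom 16 (9 higher and 7 lower). Over all 13847 genes limma called 139, edgeR 133, DESeq2 1223 and limma-voom 4378. Without the filter on low values limma called 2 of the 27 factors, both higher, against 98 of all 23619 genes. With a filter of 5 CPM it called 1 higher and 1 lower of 25 factors tested, against 163 of all 10781 genes. When control replicate 3 was dropped, 9 of the 27 rose and 7 fell, or 59.3%, against 32.4% of all genes. The median change was 0.26. RELB, a partner subunit of the non-canonical NF-kB pathway, had 3447, 2630 and 3380 normalized counts with Caba-780, against 342, 356 and 56.4 in controls. Its change was 4.03 ± 0.71 with 6 libraries (limma adjusted p = 0.0683) and 3.16 ± 0.15 without control replicate 3 (limma adjusted p = 2.27e-15). NFKB2, the p100/p52 subunit, rose by 2.00 ± 0.13 without that library (limma adjusted p = 4.03e-12). The change of the subunit RELA in the same fit, 0.29 ± 0.14, missed the threshold (limma adjusted p = 0.117).

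The other factors of that list called higher without control replicate 3 were CEBPB (1.27), ATF3 (0.87), FOXO3 (0.55), NFYB (0.46), STAT3 (0.41) and JUN (0.39), each value a log2 change. Those called lower were MYC (−1.46), CEBPD (−1.41), JUNB (−1.29), EGR1 (−1.25), FOXO4 (−0.97), SMAD2 (−0.39) and SMAD3 (−0.38). With that library left out, the calls of SMAD2 and SMAD3 were lost with library totals, and those of JUN, NFYB, STAT3, SMAD2 and SMAD3 with the replicate block. The C/EBP factor genes CEBPB and CEBPD had changes of 1.27 ± 0.14 and −1.41 ± 0.18 (limma adjusted p = 1.33e-07 and 1.28e-06). ATF4, which drives transcription when amino acids run short, changed by 0.30 ± 0.14 in that fit (limma adjusted p = 0.102). EGR1, an immediate early factor, had 5934, 6654 and 4409 normalized counts with Caba-780, against 12455, 14175 and 12076 in controls. It fell without control replicate 3, with a change of −1.25 ± 0.15 (limma adjusted p = 5.86e-07), and missed the threshold with 6 libraries (−1.20 ± 0.20, limma adjusted p = 0.0564).

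Of 13 tested genes in the list of growth arrest and stress-induced genes, SESN2 was the one called by limma with 6 libraries. Not every gene of this list is known to be induced as GADD45A is. On the same libraries edgeR called 1 higher, DESeq2 4 higher, and limma-voom 6 higher and 2 lower. Of all 13847 genes these tests called 133, 1223 and 4378, in that order. SESN2, an inhibitor of mTORC1, was at 993 ± 107 normalized counts with Caba-780, against 169 ± 57.7 in controls (SD, n = 3 each), a change of 2.60 ± 0.30 (limma adjusted p = 0.0303). The fit without control replicate 3 called 6 higher (SESN2, PPP1R15A, BTG2, DDIT3, BTG1 and BTG3) and 2 lower (GAS2L1 and GAS2L3). The proteins of these 2 link actin and microtubules, and the genes share the GAS2 name, which does not mean that growth arrest induces them. The call of GAS2L3 was lost there with library totals and with the replicate block. In that fit 61.5% of the list was called, against 32.4% of all genes. PPP1R15A, also known as GADD34, directs a phosphatase to the translation factor eIF2 alpha. It had 3394, 2679 and 2948 normalized counts with Caba-780, against 917, 875 and 60.9 in controls. Its control replicate 3 was at 0.0680 of the mean of the other controls, close to the ratio of 0.0646 for GADD45B. Its change was 3.03 ± 1.02 with 6 libraries (limma adjusted p = 0.228) and 1.74 ± 0.14 without it (limma adjusted p = 2.01e-10). DDIT3, also known as GADD153 or CHOP, rose by 1.46 ± 0.22 and the antiproliferative gene BTG1 by 1.16 ± 0.15 in that fit (limma adjusted p = 1.35e-05 and 1.53e-06).

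Of 15 genes of the kinase cascade that GADD45 proteins switch on, limma called 0 with 6 libraries (2 at an unadjusted p under 0.05). On those libraries edgeR called 0, DESeq2 1 and limma-voom 2, against 133, 1223 and 4378 of all 13847 genes. MAP2K3 and MAPK11 rose without control replicate 3 and none fell, or 13.3% of the list, against 32.4% of all genes. The median was 0.11. MAP2K3, a kinase that activates p38, had 3241, 2760 and 3039 normalized counts with Caba-780, against 1201, 1092 and 458 in controls, a change of 1.39 ± 0.14 in that fit (limma adjusted p = 8.99e-09) and 1.83 ± 0.38 with 6 libraries (limma adjusted p = 0.103). MAPK11, the beta form of p38, rose by 0.59 ± 0.17 without control replicate 3 (limma adjusted p = 0.00797), a call lost with the replicate block. MAP3K4, the kinase that GADD45 proteins bind, was at 705 ± 58.8 with Caba-780 and 631 ± 119 in controls (SD, n = 3 each). Its change without control replicate 3, 0.29 ± 0.16, missed the threshold (limma adjusted p = 0.155).

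Of 14 genes of cell cycle proteins that bind GADD45 proteins or control the CDK1 and cyclin B complex, 4 fell and 1 rose with 6 libraries (limma). On the same libraries edgeR called 4 lower and 1 higher, DESeq2 6 and 1, and limma-voom 7 and 1. Of all 13847 genes these tests called 133, 1223 and 4378, in that order. CCNB1 and CCNB2, the B-type cyclins, fell with changes of −2.13 ± 0.23 and −1.63 ± 0.20 (limma adjusted p = 0.0262 and 0.0332). The mitotic kinases PLK1 and AURKA fell too, and AURKA is itself a known binding partner of GADD45A. CDC25A, a phosphatase that activates cyclin-dependent kinases, was the one that rose, to 993 ± 90.4 normalized counts with Caba-780, against 433 ± 17.9 in controls (SD, n = 3 each), a change of 1.19 ± 0.17 (limma adjusted p = 0.0409). Without the filter on low values limma called 4 lower and 0 higher, so that the call of CDC25A was lost, and with library totals it called 3 lower and 1 higher. CDK1 had 2195, 2943 and 2836 normalized counts with Caba-780, against 2647, 2874 and 4173 in controls, and these groups overlapped. PCNA was at 5955 ± 486 with Caba-780 and 5342 ± 572 in controls (SD, n = 3 each), a change of 0.16 ± 0.16 with 6 libraries (limma adjusted p = 0.628). In the fit on 5 libraries, without control replicate 3, 8 of the 14 fell and 1 rose, or 64.3%, against 32.4% of all genes. The median was −0.58. The kinase WEE1, which inhibits CDK1, then had a change of −0.89 ± 0.14 (limma adjusted p = 1.91e-05), and the phosphatase CDC25B, which activates it, one of −0.67 ± 0.14 (limma adjusted p = 0.00044). GADD45GIP1, a mitochondrial ribosome protein first known for binding GADD45G, passed narrowly (−0.50 ± 0.18, limma adjusted p = 0.0421) and missed the threshold when library totals were used for scaling.

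Of 15 genes of active DNA demethylation and excision repair, limma called 0 with 6 libraries (2 at an unadjusted p under 0.05). On those libraries edgeR called 0, DESeq2 1 and limma-voom 6, against 133, 1223 and 4378 of all 13847 genes. Once control replicate 3 was dropped, 5 rose and 1 fell, or 40.0% of the list, against 32.4% of all genes. The median was 0.08. TET3, an enzyme that oxidises 5-methylcytosine, had 927, 956 and 758 normalized counts with Caba-780, against 504, 389 and 492 in controls, and the groups did not overlap. Its change in that fit was 0.98 ± 0.16 (limma adjusted p = 2.8e-05). ERCC4, a subunit of a repair nuclease, rose by 0.83 ± 0.19 (limma adjusted p = 0.00118). TDG, the glycosylase that removes oxidised methylcytosine, was at 756 ± 64.9 with Caba-780 and 730.4 ± 39.8 in controls (SD, n = 3 each), with a change of 0.05 ± 0.17 with 6 libraries (limma adjusted p = 0.891). ERCC5 is a repair nuclease known as a partner of GADD45A in demethylation. Its row held 42.4 to 51.1 normalized counts with Caba-780 and 28.8 to 67.9 in controls. Overlap with other annotated genes was checked only for the GADD45 genes, so these low counts may not mean a low level of ERCC5 mRNA.

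The last list held 14 genes for proteins that bind GADD45 mRNA or carry out nonsense-mediated decay, a pathway known to keep GADD45A and GADD45B mRNA low. Limma called 0 of them with 6 libraries (3 at an unadjusted p under 0.05). On those libraries edgeR called 0, DESeq2 1 and limma-voom 7, against 133, 1223 and 4378 of all 13847 genes. The fit on 5 libraries called 5 higher and 1 lower, or 42.9% of the list, against 32.4% of all genes. The median was 0.01. UPF3B, an adaptor of the decay machinery, rose by 0.71 ± 0.15 and SMG9, a partner of the kinase SMG1, by 0.64 ± 0.14 (limma adjusted p = 0.000552 and 0.00101). HNRNPD, also called AUF1, which binds GADD45A mRNA, was at 4451 ± 98.4 with Caba-780 and 5120.2 ± 617 in controls (SD, n = 3 each) and missed the threshold in that fit (−0.28 ± 0.13, limma adjusted p = 0.107).

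**Figure D5:**
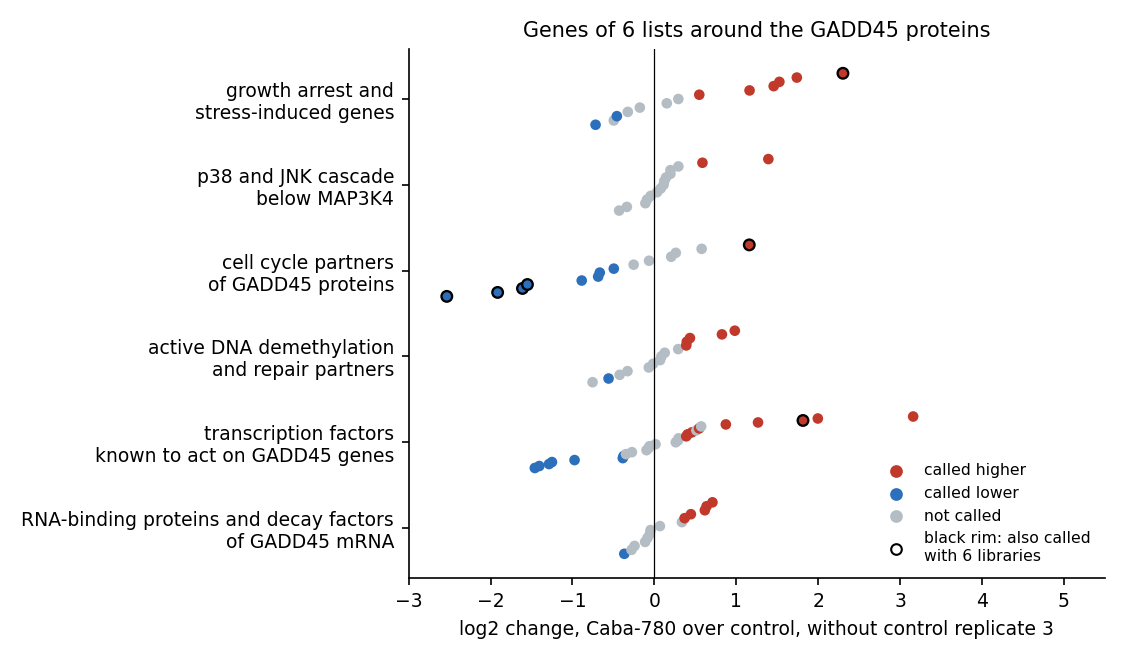
Log2 change (Caba-780 over control, without control replicate 3) of each tested gene of 6 lists; red and blue points were called higher and lower by limma, grey points were not, and black rims mark the genes also called with 6 libraries. The cell cycle list holds 8 genes called lower and 1 called higher, and the kinase cascade list 2 called higher and none lower. Of all genes in this fit, 17.2% were called higher and 15.2% lower.

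The neighbour of GADD45A did not pass the test. GNG12, a G protein subunit gene that lies 13128 bases away on the other strand, was the only gene of the table within 100000 bases. It had 3006, 3753 and 2911 normalized counts with Caba-780, against 3824, 3897 and 9030 in controls. Its change was −0.68 ± 0.36 with 6 libraries and −0.27 ± 0.14 without control replicate 3 (limma adjusted p = 0.392 and 0.141). Around GADD45B, 4 genes lay within that distance, and 2 were tested. LMNB2, which encodes lamin B2, had 6808, 5355 and 6228 normalized counts with Caba-780, against 9436, 7699 and 3275 in controls, and TIMM13, of mitochondrial import, had 807, 533 and 881 with Caba-780, against 1073, 1300.5 and 457 in controls. Both fell without control replicate 3, by 0.48 ± 0.14 and 0.71 ± 0.18 on the log2 scale (limma adjusted p = 0.0102 and 0.00424), and both were near 0 with 6 libraries (−0.02 ± 0.40 and −0.25 ± 0.43). Of all 13708 genes in the fit without control replicate 3, 15.2% were called lower, and a change of the region was not tested. The other 2, LINC01775 and TMPRSS9, had at most 14.1 normalized counts in any library.

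The genes whose profile lay nearest to that of GADD45A were found by the root mean square (RMS) difference of log2 values, each gene set to its own mean, over 10222 other protein-coding genes with at least 5 CPM on average. Over 6 libraries these were ABTB2 (RMS difference 0.301), RELB (0.310), ANKRD1 (0.464), LAMB3 (0.465) and TRAF1 (0.470). Over the 5 libraries without control replicate 3 they were PTX3 (0.204), TNFAIP3 (0.218), ABTB2 (0.263), CSF1 (0.264) and TNF (0.264). ABTB2 was the only gene in both sets, with a mean of 1778 normalized counts with Caba-780 and 122 in controls, and a change of 4.22 with 6 libraries and 3.40 ± 0.17 without control replicate 3. For GADD45B the nearest over 6 libraries were TMEM115 (0.0746), DCAF15 (0.0807), TINAGL1 (0.0810), FAM171A2 (0.0869) and LZTR1 (0.0988), and in all 5 control replicate 3 was at 0.0564 to 0.0723 of the mean of the other controls. Over 5 libraries they were LMAN2 (0.00811), CD81 (0.0227), RXRB (0.0253), RNF167 (0.0261) and DNASE2 (0.0263), and none was near GADD45B in both sets. These are descriptions over 6 or 5 libraries in 2 groups, and many genes with a like change lie near by this measure.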

How the data were processed

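The deposited table of 6 RNA-seq libraries of T24 cells was used. The genome build hg38, the aligner HISAT2 2.0.5, the counter featureCounts 1.5.0-p3, fastp, and DESeq2 1.20.0 are named per the submitters' processing notes, and the NEBNext Ultra kit per the labels' protocols. Not given in the sources used here were settings, strand and annotation release. The 6 deposited library columns hold a normalized signal, the count of reads per gene over 1 size factor per library: 100% of values were whole multiples of 1 unit (tolerance 1e-06), which gave back the reads. The authors' deposited log2 fold changes were copied for 2 genes; their p-value columns were deposited but not used. The deposited gene lengths (unit other) gave TPM. Start and end equalled GENCODE release 29 in 23616 of 23619 rows.

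Changes are Caba-780 over control from limma 3.58.1 (R 4.3.3) on log2(value + 1) with its trend and robust options. Genes needed 10 or more normalized counts in 3 or more libraries. The tests, all two-sided, were adjusted by Benjamini-Hochberg over all genes, with a threshold of 0.05. A fold on this scale understates low genes. edgeR 4.0.16, DESeq2 1.42.0 and limma-voom on recovered reads, other scalings, filters, pseudocounts, the replicate number as a block and leaving out each library were alternatives. Only the limma fit, with 6 libraries and without control replicate 3, was run on simulated counts. These had the same spread for all genes and no outlying library, unlike the data here. The alternatives were not simulated. Libraries of a group differed beyond sampling noise (chi-square per degree of freedom 9.85 to 207). Floors of 3 reads cover counting error only, since PCR copies are not independent molecules.

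The members, lists and rules were chosen with earlier results of these data known. Named genes were the members, list genes called with 6 libraries and the 2 others of each list with the lowest p without control replicate 3, genes within 100000 bases, and the 5 nearest profiles. Other list genes were named after their values were seen.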

Additional observations from a re-analysis of the deposited data

How the results depend on the processing

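The change of GADD45A kept its direction under all 19 alternatives (3.62 to 4.61), and that of GADD45B did not (−0.41 to 1.62, below 0 in 5). Counts over all genes and over the 98 list genes kept within 1.5 times under other scalings, filters and pseudocounts and with edgeR on all 6 libraries. DESeq2 called 729 genes higher and 494 lower (13 and 8 in the lists), and limma-voom with library weights 2451 and 1927 (29 and 18). Leaving out 1 library gave 0 to 2359 higher and 0 to 2077 lower (0 to 28 and 0 to 19 in the lists), the highest without control replicate 3. With that library left out, scaling by library totals gave 2950 and 1330 (32 and 14), so that the share of higher calls moved, edgeR 2395 and 2042 (28 and 19), and the replicate block 2118 and 1773 (20 and 16). Of the 47 list calls without control replicate 3, 42 held with library totals, 47 with edgeR and 35 with the block.

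With 6 libraries the replicate number as a block left 0 genes higher and 0 lower with limma (0 and 0 in the lists), with 1563 genes at an unadjusted p under 0.05. Deviations from the group means of libraries with the same number had r = 0.30, −0.33 and −0.10 for replicates 1 to 3. Control replicate 3 dominates these values. With Caba-780 replicate 1, r was 0.30 and 0.27 for control replicates 1 and 2 and −0.30 for control replicate 3. They therefore cannot show whether the numbers pair the libraries, and the reported fit does not use the numbers. Only control replicates 1 and 2 stand behind each value without control replicate 3, and 3 libraries against 3 limit what can be called.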
